A study of Mus musculus with 9 samples.

Results

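RAW-264.7 is a murine monocyte/macrophage line that arose from a tumour induced by Abelson leukemia virus, and it is widely used as a model of the unstimulated macrophage. The transcriptome described here is that of 4 RAW-vector clones, which are RAW-264.7 cells stably transfected with the pEF6/V5-His TOPO vector without an insert. They were taken by their titles, as clones 4, 5, 6 and 7, from a study of 9 clones in which the remaining 5 carried murine FoxQ1 in the same vector. The values of the RAW-FoxQ1 clones are not used below, although the arrays of all 9 clones were normalized together. All clones grew in medium with 10% fetal bovine serum and blasticidin S at 6 µg/ml, which keeps transfected cells under selection, and received no further treatment. Their total RNA was read on Affymetrix GeneChip mouse genome arrays, 1 for each clone. Each clone grew from a single cell, so the clones differ from each other by their founder cell as well as by culture and array, and with 1 array a clone these sources cannot be told apart. Values are log2 expression values, and the 4 values of a gene are always given in the order of clones 4, 5, 6 and 7.

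Macrophages are phagocytes of the myeloid lineage. Their identity rests on the transcription factor PU.1, encoded by Spi1, and their survival on signals through the receptor of colony stimulating factor 1, encoded by Csf1r. They sense microbes through Toll-like receptors and lectins, take up particles through Fc, complement and scavenger receptors, digest them in lysosomes rich in cathepsins, and present antigen on MHC molecules. In a resting state many genes of inflammation, such as those of cytokines and of nitric oxide synthesis, are held ready and are transcribed only after a stimulus.

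The array held 16492 gene rows once 64 control rows were left out, of which 15270 were paired with 1 gene symbol and 1222 stayed unnamed. Row means over the 4 clones lay between 5.75 and 14.87 with a median of 7.48, and 1% of rows had means above 12.5. Rows piled up in a narrow peak below 7 with a long tail towards high signal, as the histogram of all gene rows shows. The files hold no detection calls, so the level that silent genes reach was read from a panel of 144 measured genes of non-blood tissues, such as hormones, crystallins and neuronal proteins. The panel had a median of 6.73, and its 95 percentile, 7.69, is called the near-background bound from here on. By this bound 7591 rows (46%) were above background and 8901 (54%) at or below it. The highest panel genes were Oxt, the precursor of oxytocin, at 8.45 and Atp4b, a subunit of the gastric proton pump, at 8.22. A mean between 7.69 and 8.45 thus lies in a zone that genes of other tissues also reach. This limit holds for every gene below with such a mean, macrophage genes among them. The 36 odorant receptor genes on the array, which serve as a second set of silent genes, all lay below the bound, between 6.08 and 7.30.

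**Figure D1:**
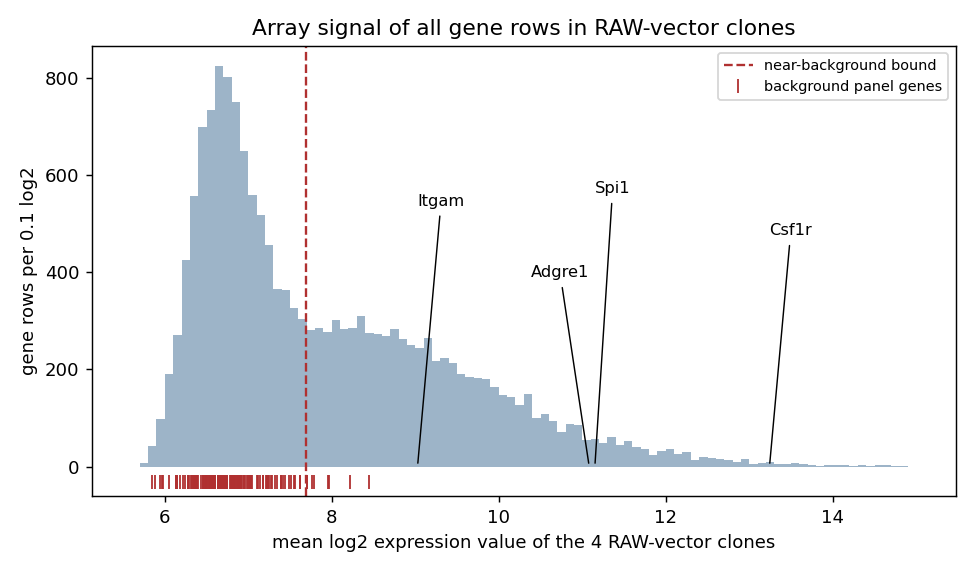
Histogram of the mean log2 expression value of 16492 gene rows over the 4 RAW-vector clones (x axis, log2 units; y axis, gene rows per bin of 0.1 log2), with the near-background bound as a dashed line and the background panel genes as ticks. The defining macrophage genes Itgam, Adgre1, Spi1 and Csf1r all stand to the right of the bound at 7.69.

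A signal at background does not show that a gene is silent. Array rows differ in probes, so ranks compare array signals and not numbers of mRNA molecules. Ribosomal protein genes, which every growing cell uses, illustrate this. Of 19 measured, 15 were above the bound and 12 were in the top 10% of all rows, while Rps15a (mean 6.27), Rpsa (6.74), Rpl17 (6.98) and Rpl21 (7.02) lay below it. Likewise Cycs, the gene of cytochrome c, averaged 7.21. Ribosomal protein and histone genes also have near-identical copies that probes may not separate, so their single values are uncertain.

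The macrophage label was checked against 5 defining genes, of which 4 were measured and all 4 were above the bound. Csf1r measured 13.09, 13.37, 13.46 and 13.05 in clones 4, 5, 6 and 7, and its mean of 13.24 ± 0.20 (SD, n = 4 clones) placed it at the 99.6 percentile of all rows. Spi1 measured 10.87, 11.37, 11.55 and 10.81, with a mean of 11.15 ± 0.36 at the 96.1 percentile. Adgre1, the gene of the F4/80 antigen, measured 11.04, 11.14, 11.05 and 11.09. The F4/80 gene hardly varied, whereas clones 5 and 6 had more Csf1r and Spi1 signal than clones 4 and 7. This order was found in 28.3% of all rows. Itgam, which encodes the CD11b chain of complement receptor 3, was the lowest of the 4 with 8.96, 9.01, 9.14 and 8.998, at the 76.7 percentile. The fifth marker, Cd68, was not matched to a named row. Markers of T and NK cells, B cells, neutrophils, mast cells, dendritic cells and the erythroid and megakaryocyte lineages were mostly at background. Of 19 measured, 2 were above the bound, where 46% of all rows were. These were Cd3e of the T cell receptor complex (mean 7.86) and Elane, neutrophil elastase (8.02), both within the range that panel genes also covered. Eif2s3y, a Y-linked translation factor gene, averaged 10.33 and Xist, the RNA of the inactive X chromosome, 6.44, in cells of a line established from a male mouse. Uty, another Y-linked gene, lay below the bound in every clone, with 7.44, 7.29, 7.15 and 7.52.

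At the top of the ranking stood genes of translation, glycolysis, iron storage and the lysosome. Of the 20 rows with the highest mean 15 were named, and none of the 20 had an SD above 0.16 between clones. The ribosomal protein gene Rpl4 led the named genes with 14.77, 14.69, 14.77 and 14.77. Rplp2, of the ribosomal stalk, measured 14.66, 14.66, 14.62 and 14.69. Aldoa, the glycolytic aldolase, followed with 14.62, 14.58, 14.58 and 14.64. The first gene that marks phagocytes was Lyz2, lysozyme, whose values were 14.46, 14.79, 14.64 and 14.46. Fth1, the heavy chain of the iron store ferritin, measured 14.49, 14.46, 14.54 and 14.44, and Cst3, the cathepsin inhibitor cystatin C, 14.44, 14.51, 14.49 and 14.39. Lgals3, the gene of galectin 3 also known as the macrophage antigen Mac-2, averaged 14.38, and Tyrobp, the adaptor DAP12 that carries signals of TREM and other receptors, 14.21. Fxyd2, a regulator of the sodium pump best known from the kidney, was also among them with 14.30, 14.30, 14.27 and 14.24. The other named genes in the 20 highest rows were Rpl26, Slc25a5, Hspa8, Rps14, Rpl8 and Tmsb4x, with means between 14.10 and 14.55. Next among the named genes came Pkm, Rps9, Eef2, Cox6a1 and Rps15, with means between 13.93 and 14.08. They encode further ribosomal proteins, the mitochondrial ADP/ATP carrier, a constitutive chaperone, thymosin beta 4, pyruvate kinase, an elongation factor and a cytochrome oxidase subunit.

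Messages of ribosomal proteins, frequent at the top of the ranking, are known to share a feature of their first bases. They typically begin with a C followed by a run of pyrimidines, the oligopyrimidine start through which growth signals control their translation. A C followed by 4 pyrimidines at the annotated start was present in 5 of 15 ribosomal protein genes with a RefSeq promoter (33.3%), against 275 of 12273 genes with one (2.24%), and in 3% of the 100 genes with the highest mean. The starts that carry it are printed because they show the element in genes at both ends of the ranking. Each runs from 20 bases before to 10 bases after the RefSeq start on build GRCm38.p6, 5′ to 3′ on the coding strand, with the pyrimidine run from the start on in capitals.
Rplp2, chr7:141447631-141447660, plus strand: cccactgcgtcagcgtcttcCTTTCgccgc
Rpl14, chr9:120571497-120571526, plus strand: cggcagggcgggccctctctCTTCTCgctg
Rpl15, chr14:18270977-18271006, minus strand: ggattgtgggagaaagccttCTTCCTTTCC
Rps6, chr4:86857358-86857387, minus strand: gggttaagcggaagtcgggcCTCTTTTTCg
Rps15a, chr7:118116138-118116167, minus strand: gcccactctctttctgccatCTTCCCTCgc
Their mean signals were 14.66 for Rplp2, 11.64 for Rpl14, 10.21 for Rpl15, 9.47 for Rps6 and 6.27 for Rps15a, so starts of this kind stood at the top of the ranking and below the bound alike. Within 2 bases of the annotated start, the element was found in 12% of the 100 genes and in 9.49% of all genes with a promoter, so both shares depend on how exactly the start is placed.

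Genes of lysosomes and cathepsins, the degradative apparatus of the phagocyte, had list medians of 9.81 and 10.86. All 39 measured genes of lysosomal hydrolases and membrane proteins were above the bound, where 46% of all rows were, and 19 of them were in the top 10%. After Lyz2 came Lamp1, the major lysosomal membrane glycoprotein (mean 13.68), Hexa, a subunit of beta-hexosaminidase (13.42), Grn, the progranulin gene (13.18), and Laptm5, a lysosomal membrane protein of blood cells (12.59). Among 20 cathepsins and their inhibitors 14 were above the bound and 11 were in the top 10%. Ctss, a cathepsin of antigen presenting cells, averaged 13.71, Ctsz 13.24, the asparaginyl protease gene Lgmn 13.23 and Ctsl 13.09. Ctsl varied little between clones, at 13.08, 13.10, 13.09 and 13.12. The 6 genes at or below the bound are all given. They included Ctsk, the collagen degrading cathepsin of osteoclasts (6.93), Ctsg of neutrophils (6.71) and Ctsw of cytotoxic lymphocytes (7.16). The others were Ctsh (6.48), Cst6 (6.40) and Csta1 (5.77).

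The phagocyte NADPH oxidase, which makes superoxide against ingested microbes, was entirely in the top 10% of rows, with 6 of 6 measured genes there and a list median of 11.77. Cyba and Cybb encode the membrane-bound cytochrome. Cyba measured 12.74, 13.04, 13.12 and 12.70, and Cybb measured 12.13, 12.41, 12.59 and 11.95. The cytosolic subunit gene Ncf1 measured 11.42, 11.69, 11.62 and 11.32, and Ncf4 measured 11.004, 11.39, 11.67 and 10.96. Both clones 5 and 6 were higher than both clones 4 and 7 in each of these and in Rac1 (mean 12.02) and Rac2 (10.55), an order found in 28.3% of all rows. Among genes of iron and heme handling 11 of 15 were above the bound (73.3%, against 46% of all rows). Next to Fth1, the heme oxygenase gene Hmox2 averaged 11.38, the biliverdin reductase genes Blvrb 11.32 and Blvra 10.91, and Slc48a1, a heme transporter, 10.15. The transferrin receptor gene Tfrc lay below the bound at 7.00, as did Hamp, the gene of the liver hormone hepcidin, at 6.45.

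Of the transcription factors that make or tune macrophages, 17 of 22 were above the bound (77.3%, against 46% of all rows) and 5 were in the top 10%. Cebpb, a partner of PU.1 in myeloid cells, led with 11.27, 11.71, 11.62 and 11.58. Next after Spi1 came Irf8, which directs monocyte development, with 10.497, 10.69, 10.65 and 10.33, Fli1 (mean 10.32) and Bhlhe40 (10.23). The 5 factors at or below the bound were these. Maf, a factor of mature macrophages, averaged 6.74, Pparg, of alveolar macrophages, 6.84, Nr1h3, the oxysterol sensor LXR alpha, 7.27, Egr2, induced by IL-4, 6.95, and Tfec, a relative of Mitf, 6.90. The clones did not differ by more than 0.28 in any of these 5 genes. Other factors of tissue macrophages or of activation were above the bound, such as Klf4 (9.23), Zeb2 (9.19), Mitf (7.91) and Bhlhe41 (7.80). Mitf and Bhlhe41 lay within the range that panel genes also covered, and Bhlhe41 was below the bound in clone 6 (7.61).

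Receptors for growth factors and cytokines were above the bound in 18 of 26 cases (69.2%, against 46% of all rows). Besides Csf1r, the highest were Il10ra and Il10rb, the chains of the receptor for the anti-inflammatory cytokine IL-10, with means of 10.74 and 10.24, Tgfbr2 (10.52) and the interferon receptor chain gene Ifnar2 (10.25). Il4ra, the IL-4 receptor chain, had a mean of 7.65, just under the bound, with 7.67, 7.66, 7.71 and 7.55. Kit and Flt3, receptors of early blood progenitors, averaged 6.52 and 6.95, and Il1r1, the signalling receptor of IL-1, 6.97.

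Genes of pattern recognition were above the bound in 23 of 33 cases (69.7%, against 46% of all rows), with 8 in the top 10%. Ly86, which encodes MD-1, a partner of the Toll-like receptor homologue CD180, measured 13.51, 13.38, 13.45 and 13.44. Cd180 itself averaged 7.14, below the bound. Cd14, the co-receptor for lipopolysaccharide, was high and uneven with 12.52, 13.29, 13.44 and 12.62. The lectin receptor gene Clec4d averaged 12.04, Tlr2, the receptor for bacterial lipoproteins, 10.81, and Unc93b1, which carries Toll-like receptors to endosomes, 10.75. Tlr4, the receptor for lipopolysaccharide, is added here after its values were seen. It measured 9.02, 9.18, 9.11 and 8.99, well above the bound but below Cd14 and Tlr2 in array signal. Sensors of nucleic acids lay on both sides of the bound. Tlr7 (10.21), Tlr13 (9.34), the DNA sensor gene Cgas (9.20) and Aim2 (8.20) were above it, and Tlr9 (7.28), Ifih1 (6.90), Tlr8 (6.62) and Tlr3 (6.25) below it. Pycard, the inflammasome adaptor ASC that RAW-264.7 cells are known to lack, measured 6.54, 6.62, 6.498 and 6.58. The plot of array signal by gene list shows that most lists of surface receptors spanned both sides of the bound, unlike the lysosome and oxidase lists.

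**Figure D2:**
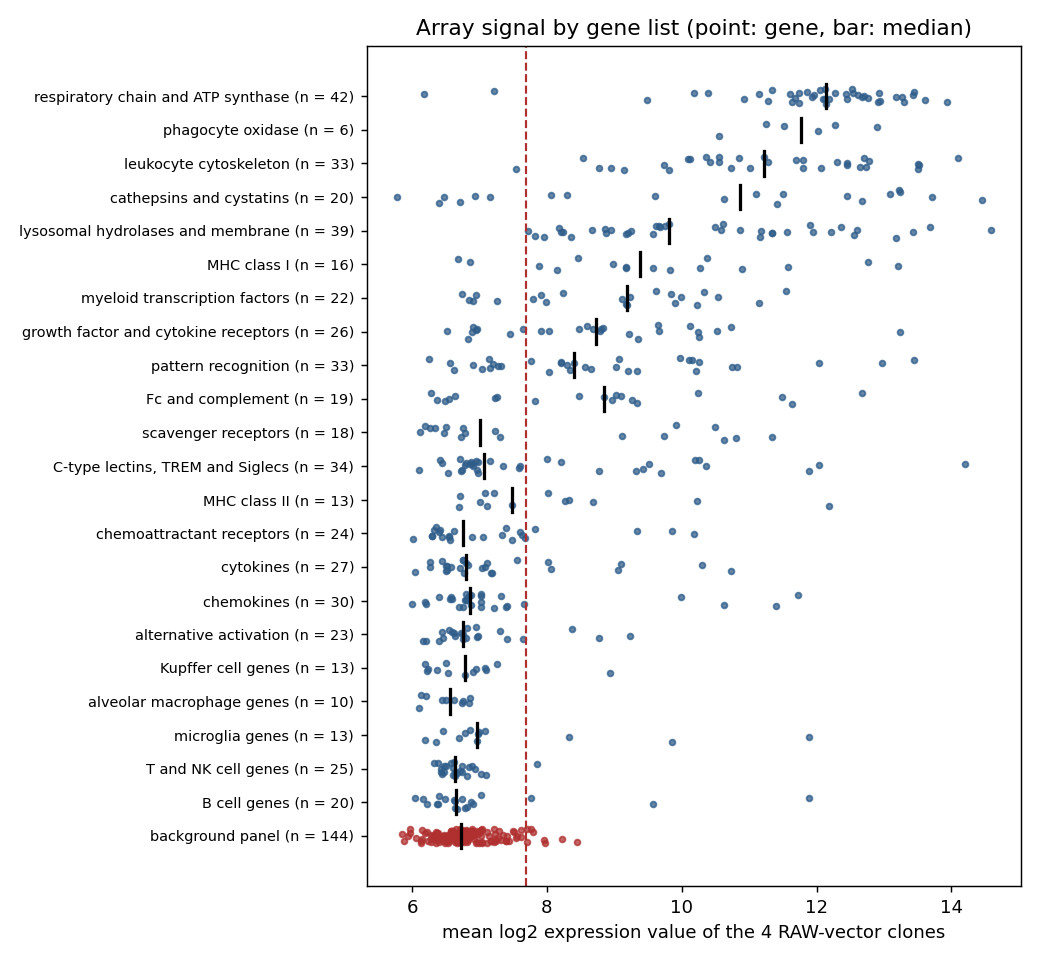
Mean log2 expression value over the 4 RAW-vector clones of each measured gene (point) of 22 gene lists and of the background panel, with the list median as a black bar and the near-background bound at 7.69 as a dashed line. Respiratory chain, oxidase, cytoskeleton and lysosomal genes lie almost wholly to the right of the bound, and genes of tissue macrophages and of lymphocytes to its left.

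Receptors for antibody and complement were above the bound in 12 of 19 cases (63.2%, against 46% of all rows). Fcer1g, the shared signalling chain of Fc receptors, measured 12.68, 12.70, 12.74 and 12.59. Fcgr3, a receptor for immunoglobulin G, measured 11.45, 11.60, 11.50 and 11.41, and Itgb2, the common chain of the leukocyte integrins, 11.52, 11.66, 11.81 and 11.54. C5ar1, the receptor of the complement fragment C5a, averaged 9.33. By contrast the 3 genes of the complement recognition protein C1q, abundant in tissue macrophages, were at background, with C1qa at 6.55, C1qc at 6.49 and C1qb at 6.28. Itgax, the CD11c chain, averaged 7.23 and Vsig4, the complement receptor of Kupffer cells, 6.36.

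Of the scavenger receptors 7 of 18 were above the bound (38.9%, against 46% of all rows) and 11 at or below it. Lrp1, a large endocytic receptor, averaged 11.34, Scarb1, the receptor of high density lipoprotein, 10.81, Cxcl16, a membrane-bound chemokine that binds oxidized lipoprotein, 10.63, Scarb2 of the lysosomal membrane 10.50 and Colec12 9.92. The mannose receptor gene Mrc1 measured 6.68, 6.89, 6.93 and 6.49, and Marco measured 6.55, 6.44, 6.54 and 6.49. Cd163, the receptor of haemoglobin complexes, averaged 6.19, and Stab1 and Stab2, the stabilins, 7.30 and 6.73. Neither Mrc1, Marco nor Cd163 reached the bound in any clone. Cd36 and Msr1, given here beyond the 5 highest, were above it in every clone, with means of 9.73 and 9.11.

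The machinery for clearing dead cells was above the bound in 9 of 20 cases (45%, against 46% of all rows). Anxa1, annexin A1, averaged 12.09, Rac1 12.02 and Mfge8, a bridge between phosphatidylserine and integrins, 11.03. The receptor tyrosine kinases of this pathway were all at background, with Axl at 6.35, Tyro3 at 6.62 and Mertk at 6.05, while their ligand gene Gas6 was well above it. Gas6 measured 9.11, 9.29, 9.25 and 8.08, so clone 7 stood apart from the other 3 by more than 1 on the log2 scale. Timd4, a phosphatidylserine receptor of resident macrophages, averaged 6.22.

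Lectin, TREM and Siglec genes were above the bound in 13 of 34 cases (38.2%, against 46% of all rows). Trem2, a lipid receptor that signals through Tyrobp, measured 11.98, 11.81, 11.84 and 11.92, whereas Trem1, its inflammatory relative, averaged 6.80. Clec4e, the receptor Mincle for mycobacterial glycolipid, averaged 10.25 and the lectin gene Cd302 10.36. Cd33, a Siglec, measured 9.01, 9.67, 10.04 and 8.99, with clones 5 and 6 above clones 4 and 7, as in 28.3% of all rows. Siglec1, the sialoadhesin of lymph node and splenic macrophages, averaged 7.35 and Siglecf, of alveolar macrophages, 6.10.

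The hexamer GAGGAA, a core of sites of the PU.1 type, was searched on either strand within 250 bases before the start. Of 69 genes with a RefSeq promoter in the defining marker, pattern recognition, Fc and complement, lectin and oxidase lists, 33 held it (47.8%). Among promoters of all genes 2765 of 12273 did (22.5%). The hexamer was found in 16 of 39 such genes above the bound (41.0%) and in 17 of 30 at or below it (56.7%), so its presence did not follow the signal. Such letters in a promoter are a match and not a site shown to be bound. The windows below are printed because they belong to macrophage genes with high signal and to the marker Itgam. Each is a stretch of 46 bases on the coding strand of build GRCm38.p6 from RefSeq, with the match, GAGGAA or its reverse complement TTCCTC, in capitals.
Trem2, chr17:48346341-48346386, plus strand: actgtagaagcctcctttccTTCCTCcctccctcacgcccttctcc
Fcgr3, chr1:171059404-171059449, minus strand: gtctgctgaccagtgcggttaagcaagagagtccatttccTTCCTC
Clec4e, chr6:123289902-123289947, minus strand: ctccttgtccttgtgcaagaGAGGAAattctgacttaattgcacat
Itgam, chr7:128062594-128062639, plus strand: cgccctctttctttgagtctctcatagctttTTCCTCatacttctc
In Fcgr3 the match ends at the last base before the annotated start, and in Trem2 it follows a run of pyrimidines. The 4 genes covered a wide range of signal, with means of 11.89 for Trem2, 11.49 for Fcgr3, 10.25 for Clec4e and 9.03 for Itgam.

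Chemokine genes were mostly at background, with 4 of 30 above the bound (13.3%, against 46% of all rows). Ccl3, the macrophage inflammatory protein 1 alpha gene, was the highest and the most variable with 11.85, 11.58, 11.20 and 12.24. Ccl9, which attracts dendritic cells, hardly differed between clones with 11.40, 11.38, 11.46 and 11.39. Ccl4, a close relative of Ccl3, measured 9.92, 9.98, 9.87 and 10.16, and Cxcl16 was given above. Ccl2, the gene of MCP-1, lay below the bound in all clones with 7.41, 7.46, 7.34 and 7.36. Ccl5 (7.02), Cxcl10 (6.57) and Cxcl2 (6.78), which macrophages make after microbial or interferon signals, were also at background. The receptors of chemoattractants were above the bound in 4 of 24 cases (16.7%). They were Gpr183, the oxysterol receptor that guides immune cells (10.18), Cx3cr1, the fractalkine receptor, with 9.58, 10.11, 10.30 and 9.46, C5ar1, and C3ar1 (7.83). Ccr2, the receptor of MCP-1, measured 6.501, 6.44, 6.43 and 6.42, at the 11.6 percentile of all rows, and Ccr1, a receptor of Ccl3, averaged 6.30. Cx3cr1 had the largest range of these receptors, 0.84. Cxcr4, named here after its values were seen, was lower in clone 6 than in the other 3, with 7.92, 7.75, 7.11 and 7.94.

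Cytokine genes were above the bound in 6 of 27 cases (22.2%, against 46% of all rows). Il18, whose product is stored as a precursor, led with 10.70, 10.65, 10.91 and 10.67. Tnfsf9, the ligand of 4-1BB, averaged 10.30 and Tgfb1 9.09. Tnf, the gene of TNF-alpha, was clearly above background before any stimulus and uneven, with 8.57, 9.36, 9.42 and 8.84. Il1b (7.04), Il6 (6.05), Il10 (6.57) and Ifnb1 (6.72) were below the bound in every clone, and the range of Il1b over the clones was 0.061. Genes of classical activation, the state that interferon-gamma and lipopolysaccharide induce, were above the bound in 7 of 19 cases, and those of alternative activation, the state that IL-4 induces, in 3 of 23. No gene of either list was in the top 10%. Nos2, the inducible nitric oxide synthase, measured 6.74, 6.83, 6.79 and 6.72, and Arg1, arginase 1, measured 6.47, 6.47, 6.48 and 6.39. Both key enzymes of arginine metabolism were thus at background. Irf1 (9.57) and Socs3 (9.56) led the classical list, and Klf4 (9.23), Clec10a (8.77) and the transglutaminase gene Tgm2 (8.37) were the 3 genes of the alternative list above the bound. Interferon response genes were above the bound in 10 of 26 cases (38.5%, against 46% of all rows). Among these were Ly6e (12.99), the antiviral membrane protein gene Ifitm3 (12.91) and the tetherin gene Bst2 (10.81), while Ifit1 (6.57), Rsad2 (6.74) and Gbp2 (6.16) were at background.

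Antigen presentation differed between the classes of MHC. For class I 14 of 16 genes were above the bound (87.5%). B2m, beta 2 microglobulin, averaged 13.21 and the heavy chain genes H2-D1 and H2-K1 averaged 12.76 and 11.57, though closely related class I genes can share probes and their single values are uncertain. For class II 6 of 13 were above (46.2%), close to the 46% of all rows. Cd74, the invariant chain that guides class II molecules, measured 12.21, 12.02, 12.21 and 12.28. The class II chain genes it serves were below the bound, with H2-Ab1 at 6.71, H2-Aa at 7.11 and H2-Eb1 at 7.47, as was their activator Ciita at 6.70. Cd86, a co-stimulatory ligand, averaged 6.44.

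Taken over the 14 macrophage lists from surface markers to the oxidase, 133 of 279 measured genes were above the bound (47.7%), close to 47.04% of all named genes, and 52 (18.6%) were in the top 10%, against 10% of all rows. The lists of macrophages of particular tissues were low, against 46% of all rows above the bound. None of 10 alveolar macrophage genes was above the bound, among them Fabp4 (6.14) and Car4 (6.44). For Kupffer cells 1 of 13 was above, the iron exporter gene Slc40a1 (8.94), with Clec4f at 6.91. Large peritoneal macrophages had 1 of 11, the clotting factor gene F10 (10.13), while their lineage factor Gata6 averaged 6.89. Microglia had 3 of 13, Trem2, Cx3cr1 and Gpr84 (8.33), with Tmem119 at 6.99 and P2ry12 at 6.35. Red pulp macrophages had 3 of 10, Il18, the heme oxygenase gene Hmox1 (9.38) and Slc40a1, with their lineage factor Spic at 6.28. Of 17 genes of osteoclasts, which RAW-264.7 cells can form under RANKL, 9 were above the bound (52.9%, against 46% of all rows). Car2, the carbonic anhydrase that acidifies the bone surface, measured 11.64, 12.21, 11.70 and 11.64, the proton pump gene Tcirg1 averaged 10.84 and the master regulator gene Nfatc1 9.63. Mmp9 (6.83), Calcr (6.03) and Itgb3 (6.82), which mature osteoclasts express, were at background with Ctsk. In the monocyte list 6 of 19 genes were above the bound (31.6%, against 46% of all rows). They were led by the calcium-binding protein genes S100a6 (13.83) and S100a4 (13.81) and the integrin gene Itga4 (11.98). S100a8 (6.64), S100a9 (6.54) and Plac8 (6.44) were below the bound.

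A few genes better known from other blood lineages stood high. Cd72, a co-receptor of B cells that some myeloid cells also carry, measured 11.82, 11.92, 12.01 and 11.78, and Blnk, an adaptor of B cell receptor signalling, measured 9.60, 9.63, 9.74 and 9.30. These and Vpreb3 (7.77) were the 3 of 20 B cell genes above the bound, where 46% of all rows were. The B cell factor Pax5 averaged 6.81 and Ms4a1, the CD20 gene, 6.37. Of 25 T and NK cell genes Cd3e alone was above. For dendritic cells 2 of 15 were above, Tcf4, a factor of plasmacytoid cells (11.15), and Bst2. Among erythroid and megakaryocyte genes Tal1, a factor of blood stem cells and the red lineage (8.40), was the 1 of 13. In the list of neutrophil and mast cell genes 3 of 22 were above, which were Csf3r, the receptor of granulocyte colony stimulating factor (8.47), Elane and Prtn3 (7.74).

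Genes of energy supply and of the cytoskeleton were high throughout. For the respiratory chain and ATP synthase 40 of 42 genes were above the bound and 39 of 42 in the top 10%, led by the cytochrome oxidase genes Cox6a1 (13.93), Cox4i1 (13.61) and Cox5a (13.44). Cox4i1 varied least of these, at 13.62, 13.60, 13.61 and 13.61. All 30 genes of glycolysis and hypoxia were above the bound, with 13 in the top 10%. Of 33 genes of the leukocyte cytoskeleton 32 were above and 24 in the top 10%, headed by Tmsb4x (14.10), Actb (13.52), Vim (13.51) and Arpc2 (13.50). Cyfip2, a regulator of actin branching, was the exception below the bound and differed between clones by more than 1, with 7.05, 7.85, 7.17 and 8.06. For mitosis and replication 25 of 34 were above (73.5%, against 46% of all rows). Only the licensing factor gene Cdt1, at 10.38, was in the top 10%. The cholesterol and fatty acid synthesis list had 22 of 23 above, with Scd2 at 11.72, Acly at 11.69 and Fasn at 11.45. In the list of 17 leukocyte integrins 7 were above (41.2%, against 46% of all rows), Itga4 and Itgb2 being the highest.

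The genes that the study names for its clones lay at very different levels in the vector clones. Foxq1, the transfected gene of the other clones, was at background here with 7.01, 6.94, 6.99 and 6.95, at the 35.6 percentile. Cldn11, the tight junction protein claudin 11, measured 10.25, 10.91, 10.52 and 10.502. Lsp1, an actin-binding protein of leukocytes, measured 11.36, 11.13, 11.30 and 11.11. Both were well above the bound, whereas Plxnc1, plexin C1, lay below the bound with 7.41, 7.41, 7.21 and 7.33. The study also measured Plxnc1 and Ccr2 by RT-qPCR in vector clones. Array signal below the bound does not show that these genes are silent there. Actb measured 13.40, 13.61, 13.79 and 13.27, a spread of 0.52 between the lowest and the highest clone. Gapdh was not matched to a named row.

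CpG dinucleotides in the promoter went along with the level of a gene, although the ranking used no sequence. In the 300 bases around the start of 12273 matched genes, the median number of CpG was 22 for genes above the bound and 11 for those at or below it. Over 10 equal bins of the ranking from the top down, the median was 21, 22, 23, 23, 21, 17, 12.5, 10, 9 and 6.5. The quartiles overlapped between neighbouring bins. The 69 genes of the defining marker, pattern recognition, Fc and complement, lectin and oxidase lists had fewer CpG on both sides of the bound. Their median was 5 in the 39 of them above it and 3 in the 30 at or below it. The hexamer TATAAA occurred on either strand within 250 bases before the start in 5.65% of promoters of genes above the bound and in 12.03% of those at or below it. The share did not fall evenly with signal, since it was 15% in the 100 genes with the highest mean, 7.42% in the top bin, 5.05% to 5.46% in the next 4 bins and 15.9% in the lowest.

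**Figure D3:**
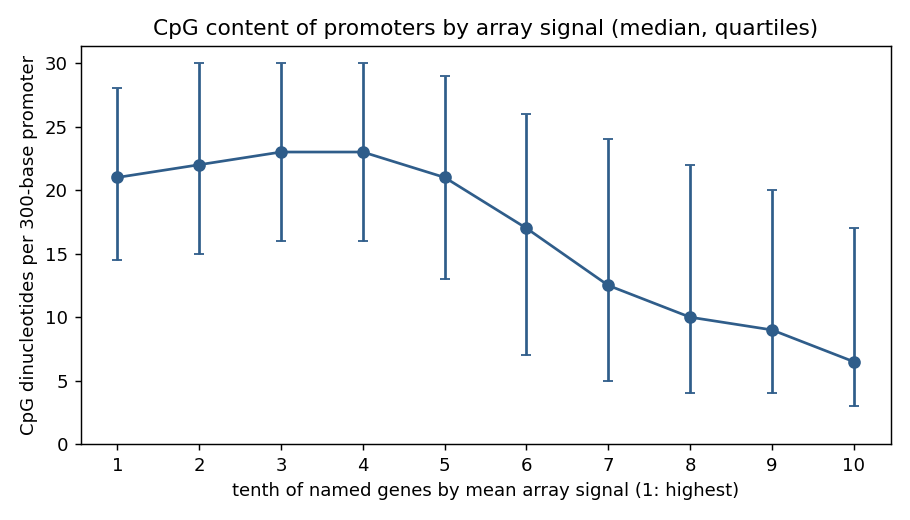
Median number of CpG dinucleotides in the 300-base RefSeq promoter (points, y axis) with quartiles (bars) by bin of the ranked named genes, where bin 1 has the highest mean log2 value in the 4 RAW-vector clones (x axis). The median is 21 to 23 in the 5 upper bins and 6.5 in the lowest.

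The 4 clones were close to each other for most genes. The SD between clones had a median of 0.075 over all rows, was under 0.191 for 90% of them, and reached 1.19 at most. In 94.1% of rows the highest and the lowest clone differed by less than 0.5. The spread depended on the level, with a median SD of 0.054 in the 2292 rows with means up to 6.5, 0.117 in those between 9.5 and 10.5, and 0.090 in the 279 above 12. Across genes, the pairwise correlation of clones was 0.988 or more, although such values are high for any arrays normalized together and genes are not independent replicates. Clones 4 and 7 were closest (r = 0.998, with 4 rows that differed by at least 1), followed by clones 5 and 6 (r = 0.997, 4 rows). Clones 6 and 7 were farthest apart (r = 0.988, 67 rows), and clones 4 and 6 came next (r = 0.990, 33 rows). The first principal component held 76.8% of the variance between clones, with loadings of 0.40, -0.30, -0.66 and 0.56.

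This pairing ran through the whole array. Clones 4 and 7 did not overlap with clones 5 and 6 in 8921 of 16492 rows (54.1%), with clones 4 and 7 higher in 4250 (25.8%) and clones 5 and 6 higher in 4671 (28.3%), against 3247 (19.7%) for clones 4 and 5 with 6 and 7, and 4258 (25.8%) for clones 4 and 6 with 5 and 7. The labels do not pair the clones, and the pairing was noticed in these values. Control rows moved with it. The 3 rows of the 18S ribosomal RNA control averaged 12.5, 13.3, 13.6 and 12.4, and the difference of the 3′ and 5′ rows of the Actb control was 0.738, 0.822, 0.862 and 0.803 and that of the Gapdh control -0.095, -0.028, 0.025 and -0.046. All 3 were higher in clones 5 and 6 than in clones 4 and 7. The 27 poly-A spike-in control rows, RNAs added before labelling, averaged 8.49, 8.64, 8.41 and 8.70, and did not follow the pairing. The part of RNA quality or labelling in the differences between clones was not tested.

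A difference of at least 1 on the log2 scale between the highest and the lowest clone was found in 75 rows (0.455% of rows), of which 67 were named. In 69 of the 75, clones 4 and 7 lay apart from clones 5 and 6, with clones 4 and 7 higher in 48 and clones 5 and 6 higher in 21. Over all rows these shares were 54.1%, 25.8% and 28.3%. The 75 rows were picked for a large range and so tend to follow the main axis of spread. No conclusion about the pairing is drawn from their count. Clone 6 was the lowest in 51 of the 75 and the highest in 21, and clone 7 was the highest in 43. Without clone 6 the count was 16 and without clone 7 it was 35, against 69 without clone 4 and 73 without clone 5. The count thus rests mainly on clones 6 and 7, which differed by at least 1 in 67 rows. No p-value is attached to any of these genes, since there is 1 array a clone.

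The largest SD belonged to Sorl1, a sorting receptor of endosomes, with 8.22, 8.31, 9.80 and 6.89. Clone 7 was at background for this gene, and clone 6 lay 2.11 above the near-background bound, so the values give a difference of at least 2.11 on the log2 scale. Adm, the hypoxia-induced peptide adrenomedullin, measured 10.64, 9.26, 8.90 and 11.09, a range of 2.19 with all 4 clones above the bound. Ranbp3l measured 7.52, 8.70, 6.79 and 6.60, with only clone 5 clearly above the bound. Fos, the immediate early transcription factor, measured 9.81, 11.38, 11.62 and 10.12, and was higher in clones 5 and 6 than in the other clones. Isg20, an interferon-induced exonuclease, measured 8.65, 8.09, 7.81 and 9.60, and the histone gene H2bc4 measured 10.41, 9.64, 9.26 and 10.96. Both followed the order of Adm, lowest in clone 6 and highest in clone 7.

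Further genes with a large SD were higher in clones 4 and 7. Gbe1, the glycogen branching enzyme, measured 10.54, 9.34, 9.19 and 10.54. Ero1a, an oxidase that helps form disulfide bonds in the endoplasmic reticulum, measured 12.97, 11.96, 11.72 and 13.20. Bnip3l, a receptor for the removal of mitochondria, measured 10.88, 9.89, 9.59 and 10.73. Both clones 4 and 7 were higher than both others in each of these 3 genes. Mgarp, a mitochondrial protein, measured 9.64, 8.76, 8.30 and 9.53, P4ha2, a collagen prolyl hydroxylase, 8.82, 8.19, 7.73 and 9.01, and Pik3ip1, an inhibitor of phosphoinositide 3-kinase, 10.12, 9.26, 8.72 and 10.01. These too had clones 4 and 7 above clones 5 and 6.

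The remaining genes of the 20 with the largest SD varied in several orders. Ptgs2, the inducible cyclooxygenase, measured 8.15, 7.66, 7.36 and 8.78. Acod1, the enzyme that makes itaconate in activated macrophages, measured 7.12, 7.91, 8.76 and 7.94, with clone 4 at background and clone 6 highest. Uhrf1, which maintains DNA methylation in dividing cells, measured 7.19, 8.10, 8.47 and 7.31 and was above the bound in clones 5 and 6 only. Dusp6, a phosphatase of the ERK kinases, was above the bound in clone 5 alone, with 7.39, 7.97, 6.39 and 7.30. Fhit did so in clone 7 alone, with 6.85, 6.98, 6.51 and 7.87. Heca measured 9.35, 8.88, 8.20 and 9.63 and Flrt2, an adhesion protein, 8.21, 7.77, 7.20 and 8.61. Ndrg4 set clone 6 apart, with 11.29, 11.19, 10.04 and 11.22. Among the 20, clones 4 and 7 were both higher than clones 5 and 6 in 13 genes and both lower in 3, as the plot of the genes with the largest spread shows. Over all rows these shares were 25.8% and 28.3%. The 20 were picked for their spread, so no conclusion about the pairing is drawn from these counts.

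**Figure D4:**
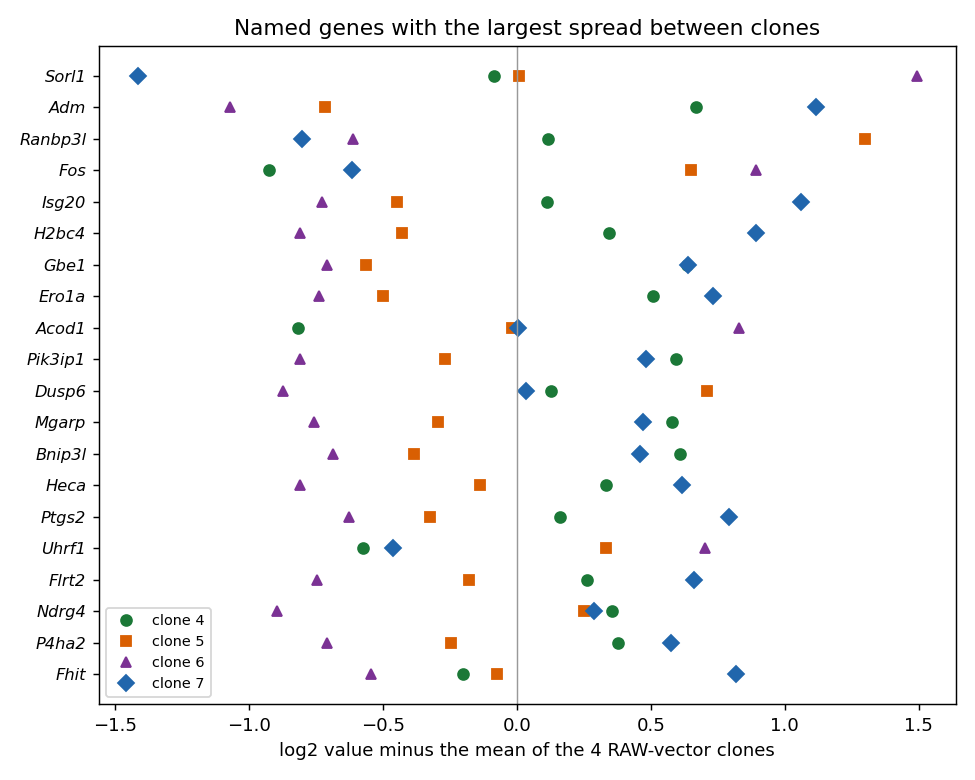
Log2 expression value of each RAW-vector clone minus the mean of the 4 clones (x axis) for the 20 named genes with the largest SD between clones among those above the near-background bound in at least 1 clone (y axis). The points of clones 4 and 7 do not overlap with those of clones 5 and 6 in 16 of the 20 genes. Over all rows this held for 54.1%.

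Of the 67 named genes with a range of at least 1, 50 were in none of the gene lists and 17 were in a list, 7 of them in that of glycolysis and hypoxia. In that list 24 of 30 genes had both clones 4 and 7 above clones 5 and 6, where 25.8% of all rows did, and 2 genes had the reverse. The gene lists were chosen with earlier results of these data known, and the pairing was noticed in these values. No conclusion is therefore drawn from counts of list genes by clone order. The list averaged 10.59, 10.18, 10.05 and 10.61 in the 4 clones. It also held 7 genes with a range of at least 1, namely Adm, Ero1a, Bnip3l, Ndrg1, Ddit4, Egln3 and Egln1. Ndrg1, a stress-induced protein, measured 12.72, 12.04, 11.56 and 12.76, and Ddit4, an inhibitor of mTORC1, measured 11.44, 10.79, 10.40 and 11.54. Egln1 and Egln3 encode oxygen-sensing prolyl hydroxylases. Egln1 measured 10.60, 9.84, 9.61 and 10.69, and Egln3 measured 9.29, 8.62, 8.15 and 8.96. The highest genes of the list were far more even, Aldoa differing by only 0.06 and Pkm, with 14.21, 13.95, 13.90 and 14.27, by 0.38. In the list of chaperones and stress genes of the endoplasmic reticulum, 15 of 23 genes had clones 4 and 7 higher and 2 had clones 5 and 6 higher. Manf, a secreted stress factor, measured 10.75, 10.40, 10.07 and 11.07, and the chaperone gene Hspa5 measured 11.48, 11.18, 11.09 and 12.02. The list averaged 9.74, 9.60, 9.58 and 9.88.

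Genes of mitosis and replication showed the opposite order. Both clones 5 and 6 were above clones 4 and 7 in 24 of 34, where 28.3% of all rows were, and the list averaged 8.18, 8.40, 8.59 and 8.19. Rrm2, a subunit of ribonucleotide reductase, measured 9.27, 9.89, 10.17 and 9.35. The reverse order was found in 5 of the 34. Among them were Cdc6, which loads the replicative helicase, with 9.61, 9.09, 8.94 and 10.05, and the checkpoint kinase gene Bub1 with 10.10, 9.55, 9.61 and 10.19. In the pattern recognition list 19 of 33 genes had clones 5 and 6 higher and 3 had clones 4 and 7 higher, and over the 14 macrophage lists together these counts were 110 and 46 of 279. Of the 42 respiratory chain genes 16 had clones 4 and 7 higher and 11 had clones 5 and 6 higher, and the list averaged 11.93, 11.91, 11.95 and 11.92. Over all rows clones 5 and 6 were both higher in 28.3% and clones 4 and 7 in 25.8%. No conclusion is drawn from these counts, since the lists were chosen with earlier results of these data known. Immediate early genes split within their list, since Fos was higher in clones 5 and 6 while Ier3 (11.56, 11.21, 11.10 and 11.77) and Atf3 (10.58, 9.90, 9.99 and 10.80) were higher in clones 4 and 7. The plot of list means by clone sets these next to the 18S control.

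**Figure D5:**
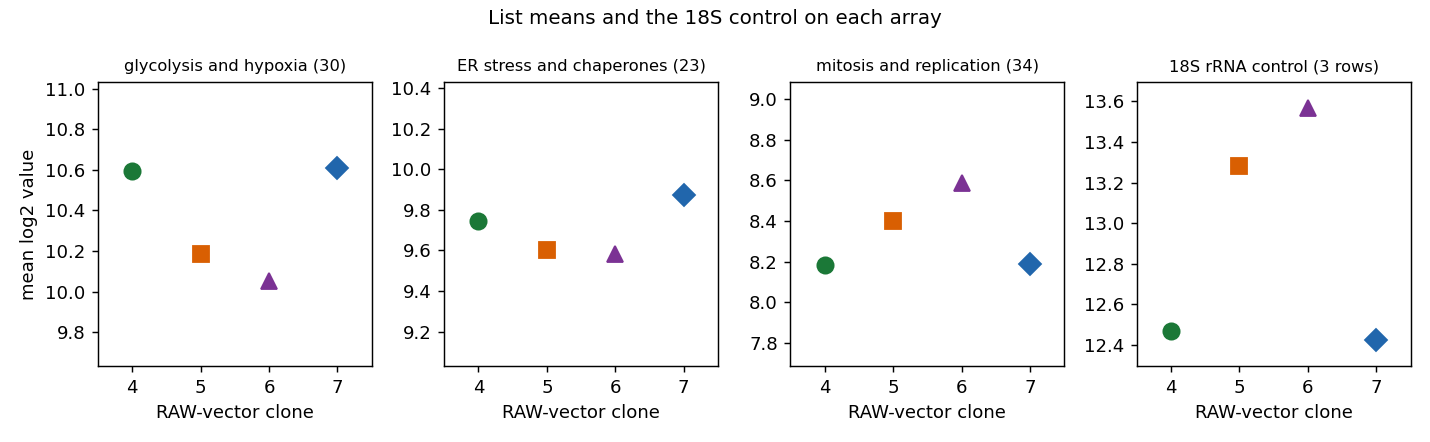
Mean log2 expression value of 3 gene lists and of the 3 rows of the 18S ribosomal RNA control (y axes, which all span the same number of log2 units) on the array of each RAW-vector clone (x axis). Glycolysis and hypoxia genes and endoplasmic reticulum chaperones are lower in clones 5 and 6, and replication genes and the 18S control are higher there.

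The pentamer ACGTG, the core of the element that hypoxia-inducible factors bind, was searched on both strands in the 250 bases before the start. It is also contained in the E-box CACGTG. It occurred in 14 of 27 promoters of the glycolysis and hypoxia list (51.9%), against 2457 of 12273 of all genes (20.02%). All genes of the list were above the bound, where the share was 24.03%, against 16.2% at or below it. The pentamer itself holds a CpG, and promoters of genes above the bound had more CpG, with a median of 22 against 11. Among genes with a range of at least 1 and clones 4 and 7 higher, it occurred in 13 of 37 (35.1%). With clones 5 and 6 higher it occurred in 2 of 13 (15.4%). The median number of CpG was 19 in the former and 7 in the latter. The 37 include genes of the glycolysis and hypoxia list, among them the 4 printed below, so the counts overlap. The list and motif were chosen with earlier results of these data known, so no conclusion is drawn from these shares. The windows of 4 genes that vary between clones are printed to show the match, in capitals as ACGTG or its reverse complement CACGT, on the coding strand of GRCm38.p6 from RefSeq.
Ero1a, chr14:45318610-45318655, minus strand: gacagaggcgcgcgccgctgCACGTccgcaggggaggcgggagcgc
Ddit4, chr10:59951932-59951977, minus strand: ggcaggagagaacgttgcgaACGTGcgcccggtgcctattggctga
Egln3, chr12:54204078-54204123, minus strand: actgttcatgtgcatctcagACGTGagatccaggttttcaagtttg
Egln1, chr8:124949297-124949342, minus strand: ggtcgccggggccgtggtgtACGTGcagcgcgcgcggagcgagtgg
All 4 genes had their lowest value in clone 6, with ranges of 1.47 for Ero1a, 1.14 for Ddit4, 1.14 for Egln3 and 1.08 for Egln1. Whether the factors bind there in these clones was not tested.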

How the data were processed

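Total RNA of each clone was hybridized by the authors to 1 Affymetrix mouse genome array, annotated with a custom definition file (version 12) based on Entrez genes, and normalized by quantile normalization, together with the RAW-FoxQ1 clones. RMA is named in the submitters' processing notes, with no version among the sources used here. What the authors deposited is log2 expression, 1 value for each gene and array. Since scanner files were not analysed here, neither the background correction nor the summary of probes was varied. Precision is limited by the number of arrays.

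Values were computed with Python 3.11.15, pandas 2.3.3 and NumPy 2.4.6. For 3 symbols with several rows the highest row was kept. Genes were ranked by the mean of the 4 clones, and mean, SD and range are descriptions, with no test. The scripts were tested on simulated data. RefSeq promoters (GRCm38.p6, 250 bases before to 50 after the start, first listed start) matched 12273 genes. The 44 gene lists were written from textbook knowledge, and the clones, lists and motifs were chosen with earlier results of these data known. Genes named are the defining markers, the 20 named genes with the highest mean, the 20 with the largest SD among those above the bound in at least 1 clone, the genes the study names and, of each list, up to 5 with the highest mean, up to 5 below the bound and those with a range of at least 1; exceptions are stated or given as examples beside a count. Alternatives were other bounds, other averages, other cutoffs of difference and of the top of the ranking, quantile normalization applied again, and leaving out each clone.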

Additional observations from a re-analysis of the deposited data

Results flagged for a closer look

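Of the genes named in the text, 250 were checked by Dixon's criterion for groups of 4. In 14 of the 250, 1 clone lay far from the other 3 for their range. Chance alone marks about 1 in 20 groups, and 4.01% of all rows were marked. Clone 6 stood alone in 9 of them. It was lowest for Ndrg4 (10.04), Rps9 (13.87) and Hmox2 (11.30), and highest for Il18 (10.91), H2-Aa (7.22), Arpc2 (13.60), Cox6a1 (14.00), Kit (6.60) and the panel gene Oxt (8.61). Clone 5 was highest for Car2 (12.21) and Lgals3 (14.42) and lowest for Rpl4 (14.69). Clone 7 was lowest for Gas6 (8.08) and Arg1 (6.39). Only for Gas6 and Ndrg4 did the gap exceed 1 on the log2 scale; for Kit, Arg1 and H2-Aa all 4 clones were below the near-background bound.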

How the results depend on the processing

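The bound depended on its definition. It was 7.43 at the 90 percentile of the panel, 8.45 at the highest panel gene, 7.16 from odorant receptor genes and 6.73 at the bound below which 25% of rows lie, and 7.64 to 7.70 when 1 clone was left out. At that last bound 4123 rows were at or below it and 219 of 279 macrophage genes above it. Under the other bounds, with every clone required above it, or without 1 clone, 109 to 164 macrophage genes were above. Rows that differed between clones numbered 590 at a 1.5-fold and 8 at a 3-fold difference, and 16 (without clone 6) to 73 without 1 clone. An oligopyrimidine start was found in 12% of the top 100 within 2 bases of the start, where 9.49% of all genes had one, and in 2% to 3% without 1 clone. Of the 100 highest rows, 97 to 100 were kept under every other average and without any clone. Background correction was not varied, and at low signal a small range shows little. No paired analysis was possible because there is no second group: the 4 clones enter as 1 group without a contrast.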
